A study of Homo sapiens with 12 samples.

Results

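The difference between DU145 and PC3, a pair of established human prostate cancer cell lines, was described across all genes, in libraries whose labels give the line. The contrast set the 6 libraries labelled DU145 against the 6 labelled PC3, averaged over the sorts of each line. A gene entered the comparison when its log2 value was at least 4 (16 CPM, the count scaled to a common library total) in at least 3 of the 12 libraries, which kept 8655 of the 18950 genes of the deposited table. RNA came from cells grown in DMEM with 10% FBS and sorted by green fluorescence, the brightest 10% (GFP+) being labelled as active and the dimmest 10% (GFP-) as inactive in Wnt/β-catenin signaling. This gave 4 groups of 3 libraries: DU145 GFP+, DU145 GFP-, PC3 GFP+ and PC3 GFP-. All 4 groups were sorted from GFP-carrying cells, and an unsorted or GFP-free control was not analysed here. Each line is 1 line, so the 6 libraries of a line are not 6 independent lines, and nothing in the labels says whether they came from separate cultures. The p-values below therefore measure the spread between these libraries, which may be technical.

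Both lines are used as models of prostate cancer that grows without androgen signaling, DU145 having been derived from a brain metastasis and PC3 from a bone metastasis. Both are epithelial in origin, and both are commonly described as positive for the epithelial adhesion protein EpCAM. PC3 is known for a homozygous loss in CTNNA1, which encodes the α-catenin that ties cadherins to actin. DU145 is known to make E-cadherin, the product of CDH1.

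The libraries went against these descriptions at several genes, so the groups are called by their labels below (DU145-labelled, PC3-labelled). CTNNA1 had 377, 402 and 416 CPM (lowest, median and highest) in the PC3-labelled libraries and 412, 477 and 489 CPM in the DU145-labelled libraries. The α-catenin transcript was thus at a similar level under both labels. A gene-level value does not show which exons the reads covered, so a transcript of the undeleted part of a gene would also be counted.

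The epithelial markers EPCAM, KRT19 and CDH1 were at or near background under both labels, while the keratin genes KRT8 and KRT18 were not. EPCAM had between 0 and 3 counts in each of the 12 libraries, and KRT19 had 6 counts over the DU145-labelled libraries and 0 over the PC3-labelled. CDH1 had 29 counts in all in the DU145-labelled libraries (0.345 ± 0.186 CPM, mean ± SD, n = 6) and 5 in the PC3-labelled libraries. The simple-epithelium keratin genes KRT8 (2254 ± 572 and 22.1 ± 4.8 CPM under the DU145 and PC3 labels) and KRT18 (1666 ± 349 and 389 ± 53 CPM) were present. KRT7, below the minimum, stood at 1.82 ± 0.86 and 4.96 ± 0.80 CPM. VIM, the intermediate filament gene of mesenchymal cells, stood at 1345 ± 173 and 1585 ± 196 CPM. A further 2 genes were chosen after their values were seen. PAX8 and PAX2, transcription factors of kidney and genital-tract development, stood at 305 ± 24 and 145 ± 23 CPM in the DU145-labelled libraries and at 197 ± 19 and 71.6 ± 12.9 CPM in the PC3-labelled libraries. Where the data and the label disagree, no other identity is assigned here. The marker lists for other cell types were low: none of 6 fibroblast and stromal genes and none of 4 endothelial genes reached the minimum, and their summed levels were at most 4.55 and 1.21 CPM in a library. Of 3 blood cell genes, CD68 reached the minimum (33.5 ± 7.7 against 5.89 ± 1.34 CPM, with fractional counts in 12 of 12 libraries).

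**Figure D1:**
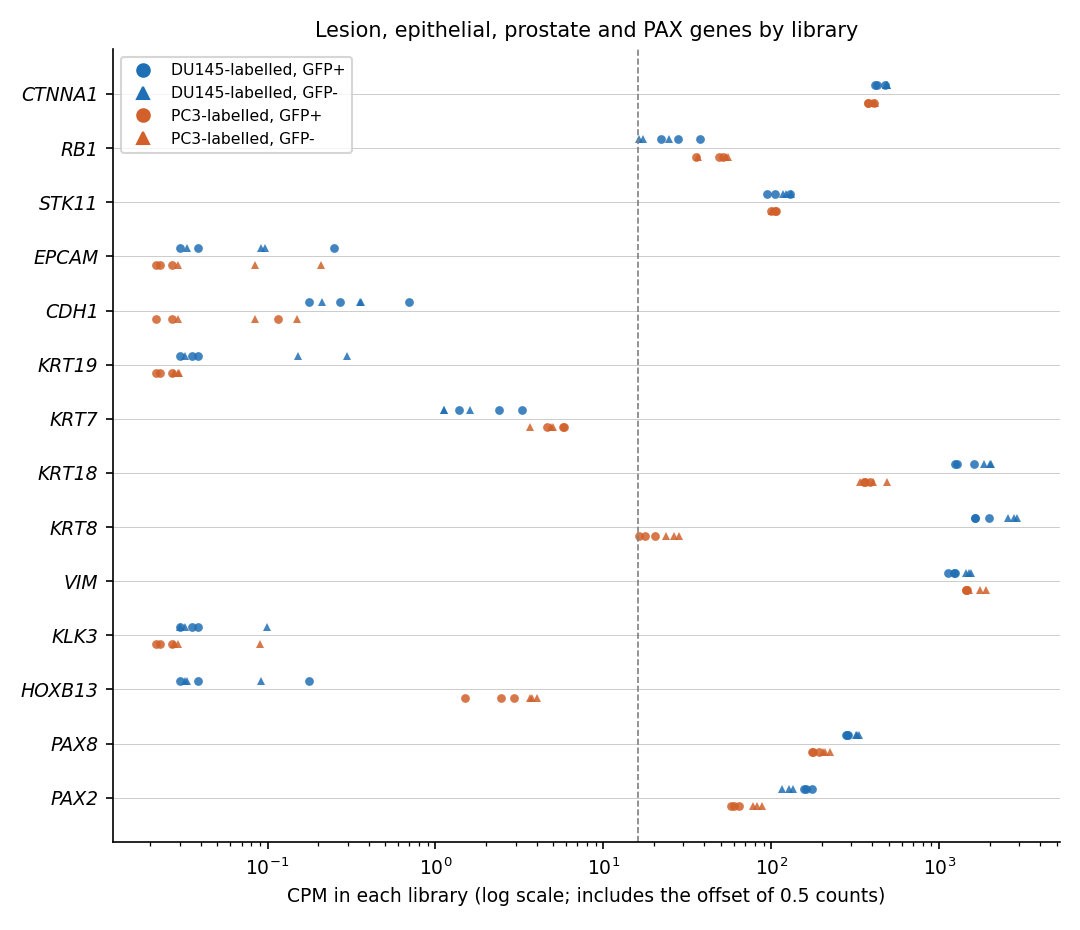
CPM (log scale, including the offset of 0.5 counts) of 14 genes in each of the 12 libraries, with circles for GFP+, triangles for GFP- and a dashed line at 16 CPM. CTNNA1 lies in neighbouring ranges under both labels, while EPCAM, KRT19 and KLK3 lie at the level of a few counts in all libraries.

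Total estimated counts ranged from 13453614 to 21528810 per library, and a gene without a count could still have stood at 0.233 CPM in the library of lowest depth. These limits cover counting error only. Libraries of the same group correlated at 0.971 to 0.994 across the 8655 genes (log2 values), those of the same line and different sorts at 0.940 to 0.982, and those of different lines at 0.638 to 0.759. The first principal component, which held 87.7% of the variance, separated the labels. PC3 GFP- replicates 2 and 3 stood apart in having 3495 and 3491 genes at a count of 0, against 4577 to 4819 in the other 4 PC3-labelled libraries. Replicate 2 correlated with the DU145-labelled libraries at 0.732 to 0.759, against 0.638 to 0.744 for the other 5 PC3-labelled libraries. Replicate 3 did not share these higher values, reaching at most 0.719. Without PC3 GFP- replicates 2 and 3, 6538 genes passed the test in place of 6849.

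Line-restricted genes were defined by values, as at least 16 CPM in all 6 libraries of one label and at most 1 CPM in all 6 of the other, and are given as a description with no test. By this rule 56 genes, 0.647% of those above the minimum, were restricted, 43 to the DU145-labelled and 13 to the PC3-labelled libraries. Just inside the upper limit lay EGFL7, with at most 0.990 CPM in the PC3-labelled libraries, and just outside AFAP1L2, with at most 1.06 CPM. In the other direction, TENM3 (at most 0.970 CPM in the DU145-labelled libraries) was inside and ZEB2 (1.03 CPM) outside.

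For 5 genes there was not 1 count in the 6 libraries of the other label. Of these, 4 are described here. UCHL1, a ubiquitin hydrolase used as a neuroendocrine marker, had 63.3, 76.0 and 84.8 CPM in the DU145-labelled libraries (6768 counts) and 0 counts in the PC3-labelled libraries. Against the 3 counts that 0 allows over the group, it was at least 2864-fold higher in the DU145-labelled libraries. The forkhead factor FOXE1 (29.2 ± 3.6 CPM) and EPDR1 (20.8 ± 2.8 CPM), which encodes a secreted lysosomal-type glycoprotein, likewise had 0 counts in the PC3-labelled libraries. GTSF1, a factor of the germline piRNA pathway, went the other way, with 31.0 ± 2.5 CPM in the PC3-labelled libraries and 0 counts in the DU145-labelled ones.

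The nearest genes above the minimum on either side were transcribed under both labels, though some lay far away. Beside UCHL1 on chromosome 4, APBB2 (39.7 kb away) and TMEM33 (666.7 kb away) had 39.8 and 88.9 CPM in the PC3-labelled libraries. Beside FOXE1, NCBP1 (179.5 kb) and ANP32B (126.6 kb) had 81.7 and 261 CPM there. Beside EPDR1, STARD3NL (226.3 kb) and ANLN (1230 kb) had 34.9 and 164.5 CPM there. Beside GTSF1, ITGA5 (36.5 kb) and BLOC1S1 (1242 kb) had 168 and 40.1 CPM in the DU145-labelled libraries.

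Restricted genes differed in how many CpG dinucleotides their promoters hold, from few to many. Promoters of 6 are shown, namely UCHL1, FOXE1, EPDR1 and GTSF1, with AXL and MAGEA3 picked by hand from the PC3-restricted genes. Each is the 250 bases before the RefSeq start on GRCh38.p14, 5′ to 3′ on the gene's strand, with CpG (the letters CG, which read the same on both strands) in capitals. The first 3 belong to genes with 0 counts in the PC3-labelled libraries, the other 3 to genes restricted to those libraries. They lie at chr4:41256678-41256927, chr9:97852976-97853225, chr7:37920390-37920639, chr12:54473603-54473852, chr19:41218973-41219222 and chrX:152698544-152698793, GTSF1 on the minus strand and the others on the plus strand.
UCHL1: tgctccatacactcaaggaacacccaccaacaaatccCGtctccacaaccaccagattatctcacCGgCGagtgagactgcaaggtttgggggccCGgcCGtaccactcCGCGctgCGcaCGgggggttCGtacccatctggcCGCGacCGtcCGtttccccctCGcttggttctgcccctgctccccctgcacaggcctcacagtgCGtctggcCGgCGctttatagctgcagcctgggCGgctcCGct
FOXE1: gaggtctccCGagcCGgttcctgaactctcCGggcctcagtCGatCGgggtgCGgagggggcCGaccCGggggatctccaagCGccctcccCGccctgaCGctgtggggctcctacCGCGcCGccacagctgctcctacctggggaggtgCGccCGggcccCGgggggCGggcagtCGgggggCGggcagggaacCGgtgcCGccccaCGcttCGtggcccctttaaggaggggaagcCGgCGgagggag
EPDR1: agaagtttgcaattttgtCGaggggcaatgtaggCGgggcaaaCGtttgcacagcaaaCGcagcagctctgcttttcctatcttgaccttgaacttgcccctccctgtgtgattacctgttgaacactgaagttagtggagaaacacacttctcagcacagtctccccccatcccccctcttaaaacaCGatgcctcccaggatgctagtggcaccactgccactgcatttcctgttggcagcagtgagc
GTSF1: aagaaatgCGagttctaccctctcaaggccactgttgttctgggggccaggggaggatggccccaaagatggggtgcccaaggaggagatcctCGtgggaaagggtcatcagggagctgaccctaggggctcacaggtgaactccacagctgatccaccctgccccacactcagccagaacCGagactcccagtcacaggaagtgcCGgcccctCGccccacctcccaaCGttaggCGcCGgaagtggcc
AXL: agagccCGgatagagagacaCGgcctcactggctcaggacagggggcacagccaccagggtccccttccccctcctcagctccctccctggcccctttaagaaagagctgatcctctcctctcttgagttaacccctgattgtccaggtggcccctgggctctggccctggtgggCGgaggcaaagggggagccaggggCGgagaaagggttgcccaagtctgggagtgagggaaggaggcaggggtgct
MAGEA3: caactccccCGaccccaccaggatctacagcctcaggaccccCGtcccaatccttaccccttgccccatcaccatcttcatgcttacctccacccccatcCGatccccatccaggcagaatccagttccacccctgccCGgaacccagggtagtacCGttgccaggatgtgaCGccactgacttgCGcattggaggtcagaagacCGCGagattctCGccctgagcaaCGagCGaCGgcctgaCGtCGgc
UCHL1 and FOXE1 hold 20 and 26 CpG, EPDR1 5, GTSF1 8, AXL 4 and MAGEA3 15. RefSeq promoters matched 32 of the 43 and 11 of the 13 restricted genes, and 6928 of the 8655 genes above the minimum. Of the matched DU145-restricted genes, 28 (87.5%) held at least 15 CpG, with a median of 26. Of the matched PC3-restricted genes, 5 (45.5%) did, with a median of 10. These were FOXP1 (31), AMIGO2 (26), NPR1 (20), TENM3 (20) and MAGEA3, of which only MAGEA3 is printed above. Among all matched genes the share was 79.6% and the median 22. This describes the sequence, and methylation was not measured.

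The 8 DU145-restricted genes of highest mean CPM also held MYH14, a non-muscle myosin gene, which ranged from 31.0 to 101 CPM, and the following genes. GLUL, which encodes glutamine synthetase, had 64.9, 76.2 and 81.0 CPM against 5 counts over the 6 PC3-labelled libraries. C19orf33 had 118 ± 23 CPM against 8 counts, with fractional counts in 4 libraries. The metallothionein gene MT1L had 61.9 ± 8.7 CPM against 1 count, a pooled ratio of 7103 with a 95% counting interval of 1274 to 280613. LTB, which encodes lymphotoxin β, ranged from 35.0 to 145 CPM within the DU145-labelled libraries and had 27 counts over the PC3-labelled ones. The kinase gene LRRK1 (61.8 ± 1.7 CPM) had 39 counts there. Outside these 8, COL6A2, a collagen VI chain gene, had 61.0 ± 11.7 CPM against 31 counts.

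Of the 13 PC3-restricted genes, the receptor tyrosine kinase gene AXL had 143, 168 and 192 CPM in the PC3-labelled libraries and 20 counts over the DU145-labelled libraries. TENM3, a teneurin of neuronal connection, had 149, 166 and 194 CPM against 36 counts. The cancer-testis antigen genes MAGEA3 and MAGEA2, both on the X chromosome, had 104 ± 28 and 33.4 ± 10.6 CPM against 2 and 1 counts. Their counts were fractional in 6 libraries each, so reads may be shared with other genes and these levels are uncertain. The pooled ratio for MAGEA3 was 4848 with a 95% counting interval of 1342 to 40034. EVA1A (97.9 ± 11.6 CPM), a gene of autophagy and apoptosis, SLCO2B1 (89.1 ± 12.4 CPM), an organic anion transporter, the forkhead factor FOXP1 (55.9 ± 12.9 CPM) and the natriuretic peptide receptor gene NPR1 (40 ± 10 CPM) were restricted in the same direction.

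**Figure D2:**
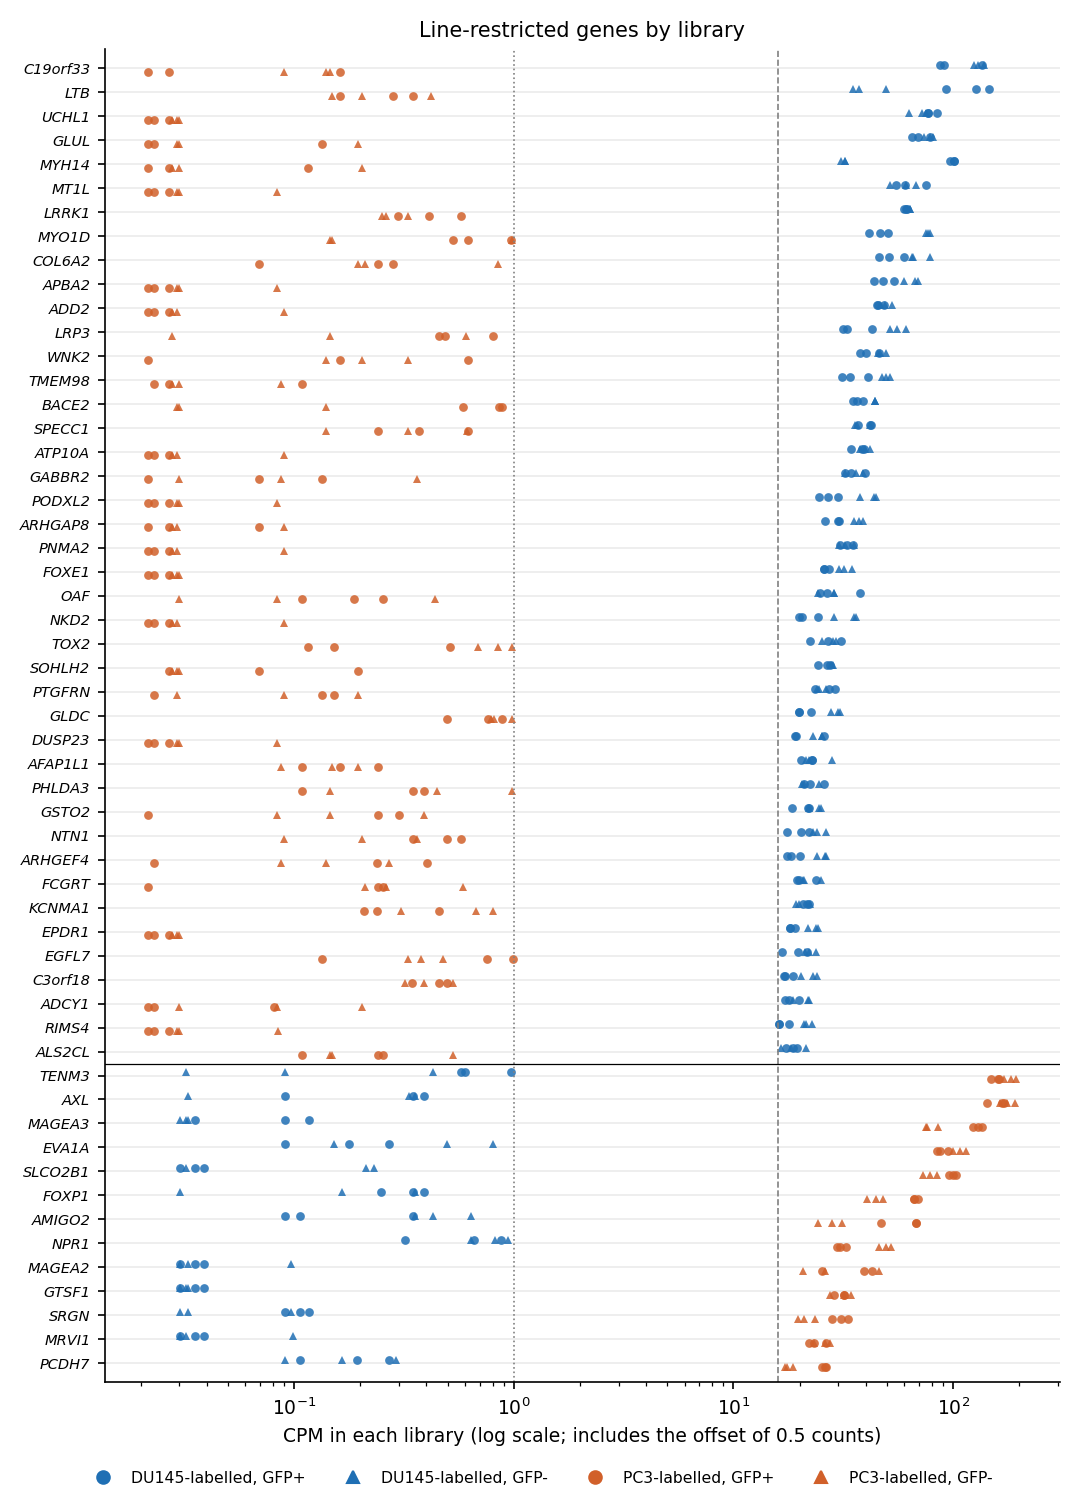
CPM (log scale, including the offset of 0.5 counts) of 55 of the 56 line-restricted genes in each library, 42 restricted to DU145-labelled libraries above the line and the 13 restricted to PC3-labelled libraries below it, with dotted and dashed lines at the limits of 1 and 16 CPM. The separation is fixed by the rule, and the rows show how close to 0 each gene lay under the other label.

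Over all 8655 genes, 6849 (79.1%) differed between the labels (limma, Benjamini-Hochberg adjusted p under 0.05). They split into 3406 higher in the DU145-labelled libraries (39.4%) and 3443 higher in the PC3-labelled libraries (39.8%). At least 2-fold apart as well were 1760 genes (20.3%), 759 higher in the DU145-labelled (8.77%) and 1001 in the PC3-labelled libraries (11.6%). All 6 libraries of one label lay above all 6 of the other for 4133 genes (47.8%), 2135 higher in the DU145-labelled (24.7%) and 1998 in the PC3-labelled libraries (23.1%). Of the 7029 genes above the minimum under both labels, 5299 (75.4%) passed. The median absolute difference was 0.47 on the log2 scale. Among genes at least 16-fold apart, 133 were higher in the DU145-labelled and 48 in the PC3-labelled libraries. With so many genes called, a gene that passed is not unusual, and the size of its difference carries the information.

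The differences followed base composition. Across 8651 genes, which are not independent replicates, Spearman's rho between transcript GC content and the line difference was 0.61. When genes were ordered by GC content, the lowest 20% had a median difference of -0.85 and the highest 20% one of 0.42. After removal of the GC and length trend 6936 genes passed, but the genes at least 2-fold higher in the PC3-labelled libraries fell from 1001 to 390. The part of this trend in single genes was not tested, and where its removal ended a call or turned a direction the value is given with the gene.

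The largest differences were ranked among genes with a mean log2 value of at least 6 in the higher line, past the test and without overlap. Besides UCHL1, GLUL, C19orf33 and LTB, the 10 highest in the DU145-labelled libraries included these. SLC12A7, a potassium-chloride cotransporter gene, had 322, 366 and 419 CPM against 0.262, 0.885 and 1.64 CPM (log2 difference 8.96 ± 0.18, limma adjusted p = 9e-14). DSP, which encodes desmoplakin, the plaque protein that anchors keratin at desmosomes, had 149, 166 and 188 CPM against 0.253, 0.443 and 1.09 CPM (8.48 ± 0.25). MMP1, the interstitial collagenase gene, had 693, 734 and 798 CPM against 0.833, 2.45 and 5.21 CPM (8.35 ± 0.13, a 327-fold difference). ANXA6 (7.62 ± 0.17), an annexin gene, and EEF1A2 (7.22 ± 0.14), the tissue-restricted elongation factor gene, followed. That the labels do not overlap in these genes is fixed by the rule that picked them.

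In the other direction, besides MAGEA3, SLCO2B1, AXL, TENM3 and EVA1A, the list held PLEK2 (-7.79 ± 0.40), a pleckstrin gene of actin remodelling, and GJA1 (-7.35 ± 0.23), the connexin 43 gene. ANXA1, an annexin gene of inflammation control, had 113 ± 12 CPM against 0.995 ± 0.726 CPM (-7.21 ± 0.14). ADAMTS1 (-6.88 ± 0.21), a matrix protease gene, and LYPD1 (-5.20 ± 0.31) completed it. Fits to near-absent genes depend on the offset of the deposited values. With an offset of 8 counts in place of 0.5, 33 of 184 named or added genes moved by more than 1.5 times, all of them with a log2 difference of at least 5.04 in size, and the largest difference became 8.26.

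Genes of prostate lineage were sparse. Of 16 in the table, 4 were above the minimum. Of these, 3 were higher in the DU145-labelled and 1 in the PC3-labelled libraries, against 39.4% and 39.8% of all genes. KLK3, which encodes prostate-specific antigen, had 1 and 1 count over the libraries of each label, KLK2 0 and 1, TMPRSS2 2 and 0, ACPP 1 and 0, and FOLH1 9 and 0. No difference was detectable at this depth for KLK3, KLK2, TMPRSS2, FOLH1 or ACPP (adjusted p between 0.0743 and 0.863, fit to all genes of the table). GATA2, a hematopoietic and prostate factor, had 24.0, 34.8 and 44.3 CPM against 0.379, 0.707 and 1.64 CPM (log2 difference 5.42 ± 0.17, or 4.77 with an offset of 8 counts). HOXB13 and FOXA1 were below the minimum and higher in the PC3-labelled libraries, HOXB13 with 340 counts against 3 (pooled ratio 89.3, 95% counting interval 30.3 to 435) and FOXA1 with 6.2 ± 1.5 against 0.661 ± 0.506 CPM. FKBP5, an androgen and glucocorticoid target, had 63.1 ± 6.3 against 32.0 ± 7.0 CPM. SLC45A3 (10.8 ± 2.4 against 6.35 ± 1.59 CPM) and STEAP2 (1.53 ± 0.85 against 0.271 ± 0.214 CPM), both below the minimum, were higher in the DU145-labelled libraries, while STEAP1 (0.524 ± 0.113 against 0.914 ± 0.367 CPM) and TRPM8 (12 and 8 counts) did not pass. NCOA4, a nuclear receptor coactivator and ferritin receptor gene, was higher in the PC3-labelled libraries by 0.36 ± 0.06, a call lost with the GC trend removed (-0.03).

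KRT8 and KRT18 were higher under the DU145 label. All 4 luminal epithelial genes above the minimum (of 15) were higher there, with a median log2 difference of 2.61 against 0.01 over all genes. Among all genes, 39.4% were higher under the DU145 label and 39.8% under the PC3 label. A gene can reach the minimum only through the label where it is high, and 3 of the 4 reached it under both. KRT8 had 1641, 2272 and 2896 CPM against 16.2, 21.9 and 28.3 CPM (101-fold, log2 difference 6.66 ± 0.07). Its partner KRT18 had 1666 ± 349 against 389 ± 53 CPM, 4.23-fold. Thus the type II keratin differed far more than the type I keratin it pairs with. The tetraspanin gene CD9 (5.32-fold) and the epithelial factor gene ELF3 (6.97-fold) followed. KRT8 and ELF3 had fractional counts in 8 and 5 libraries. KRT7 went the other way, higher in the PC3-labelled libraries by a log2 difference of -1.55 ± 0.23 in the fit without a minimum. Of 6 basal and squamous genes above the minimum, 3 were higher in the DU145-labelled and 2 in the PC3-labelled libraries. SFN (3.56-fold) and the hemidesmosome integrin gene ITGB4 (13.9-fold) were among the former, and DST (-1.63 ± 0.19) and the laminin 332 chain gene LAMB3 (-2.19 ± 0.13) among the latter. S100A2 (0.33 ± 0.13) turned to -0.59 in GFP- libraries alone. Of 3 neuroendocrine genes above the minimum, UCHL1, SYP (0.65 ± 0.07) and ENO2 (0.24 ± 0.08) were higher in the DU145-labelled libraries, ENO2 turning to -0.01 with the GC trend removed.

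Mesenchymal genes leaned to the PC3 label. Of 10 above the minimum, 8 were higher in the PC3-labelled libraries and 1 in the DU145-labelled, against 39.8% and 39.4% of all genes. The remaining 1 did not pass, and the list's median was -1.71. A gene can reach the minimum through 1 label alone, and only 4 of the 10 reached it under both. Of these 4, 3 were higher in the PC3-labelled libraries and 0 in the DU145-labelled. Their median absolute difference was 0.54, against 0.38 over all genes above the minimum under both labels. CDH2, which encodes N-cadherin, had 61.7, 71.0 and 86.0 CPM in the PC3-labelled libraries and 0.697, 3.02 and 7.38 CPM in the DU145-labelled libraries (29.3-fold). ZEB2, a repressor of epithelial genes, had 29.5 ± 3.9 against 0.621 ± 0.316 CPM (-5.75 ± 0.21, or -4.78 with an offset of 8 counts). TGFBI (5.10-fold) and FN1 (6.05-fold), which encode matrix proteins, were also higher in the PC3-labelled libraries, although FN1 overlapped between the labels. SNAI1, the Snail repressor gene, went the other way (16.5 ± 4.0 against 3.0 ± 1.4 CPM).

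Homeobox and cancer-testis genes differed in both directions. Of 12 homeobox genes above the minimum, 5 were higher in the DU145-labelled and 7 in the PC3-labelled libraries, against 39.4% and 39.8% of all genes. At least 2-fold higher were 0 and 2 of them, and their median absolute difference was 0.57, near the 0.47 of all genes. The largest difference among them was that of MEIS2 (-1.60 on the log2 scale). Of 5 cancer-testis genes above the minimum, 3 were higher in the PC3-labelled libraries and 2 in the DU145-labelled ones. PRAME, a melanoma-associated antigen gene, had 104, 115 and 127 CPM in the DU145-labelled libraries against 0.320, 1.21 and 1.93 CPM (124-fold), opposite in direction to MAGEA3. The type II MAGE genes MAGED1 (-0.32 ± 0.06) and MAGED2 (0.32 ± 0.06) were expressed under both labels.

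Of 7 genes that carry known lesions in prostate cancer lines, 4 were higher in the DU145-labelled and 3 in the PC3-labelled libraries. The matching shares of all genes were 39.4% and 39.8%. Of the 7, 1 was at least 2-fold higher in the DU145-labelled libraries. Of those reported here, CDKN2A (135 ± 26 against 83 ± 10 CPM, fractional counts in 7 libraries) and RB1 (24.3 ± 7.9 against 46.9 ± 8.7 CPM) differed by less than 2-fold. Removing the GC trend ended the RB1 call (-0.04) and turned STK11 from 0.17 ± 0.07 to -0.30. CTNNA1, at 0.21 ± 0.05, stood at -0.01 after quantile normalization. The order of STK11 and CTNNA1 between the labels therefore depended on the scaling.

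**Figure D3:**
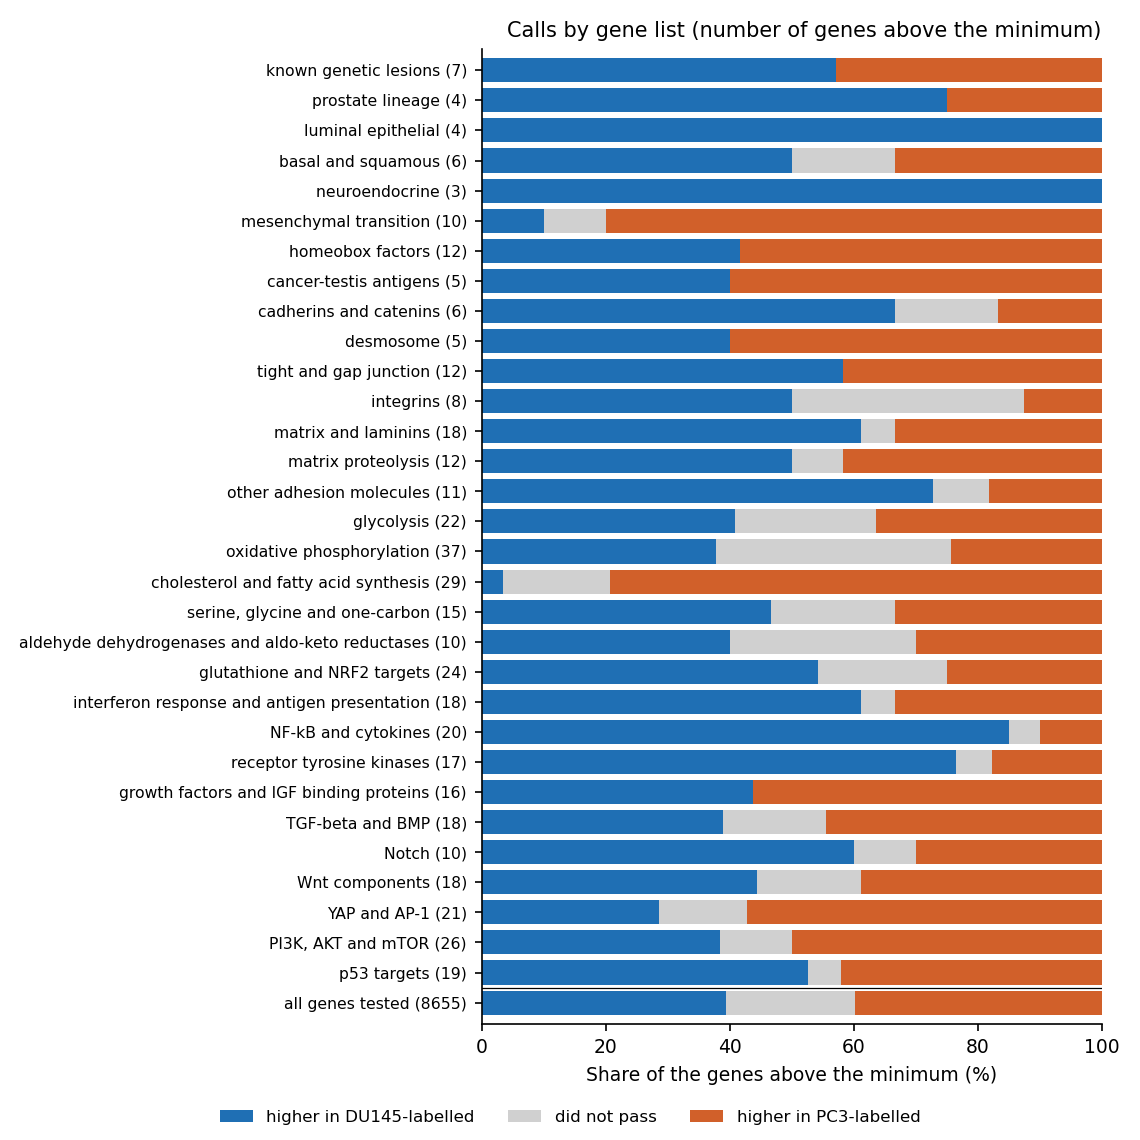
Share of the genes above the minimum in each list (number in brackets) that were higher in DU145-labelled libraries, did not pass, or were higher in PC3-labelled libraries (limma adjusted p under 0.05), with all 8655 genes at the bottom. Cholesterol and mesenchymal genes lean to the PC3 label, luminal, NF-kB and receptor tyrosine kinase genes to the DU145 label.

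Of 14 cadherin and catenin genes, 6 were above the minimum, and 1 of these did not pass. There were 4 higher in the DU145-labelled libraries and 1 (CDH2) in the PC3-labelled, against 39.4% and 39.8% of all genes. CTNNB1 (480 ± 24 against 339 ± 28 CPM), which encodes β-catenin, CTNND1 (357 ± 14 against 226 ± 10 CPM), which encodes p120 catenin, and JUP (128 ± 32 against 40.4 ± 6.9 CPM), which encodes plakoglobin, were higher under the DU145 label. CTNNAL1 did not pass (0.01 ± 0.12) and stood at 0.44 in GFP+ and -0.43 in GFP- libraries. Below the minimum, CDH1 (2.53 ± 0.56) and CDH4 (417 against 123 counts) were higher in the DU145-labelled libraries. CDH13, which encodes T-cadherin, had 175 counts in the PC3-labelled libraries and 0 in the DU145-labelled ones, at least 46.0-fold higher. CDH6 had 82 against 3 counts (pooled ratio 21.4, 95% counting interval 7.11 to 107) and CDH5 71 against 21 counts. CDH3 (10 and 54 counts) did not pass. CDH11 (0 and 1 count) and CTNNA2 (3 and 1 counts) were at or under the floor.

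At desmosomes, DSP and PERP (2.94-fold) were higher in the DU145-labelled libraries, and PPL (5.01-fold), PKP4 (1.35-fold) and DSG2 in the PC3-labelled libraries. DSG2, a desmosomal cadherin gene, differed by -0.46 ± 0.11 and stood at 0.32 in GFP+ libraries alone and at 0.05 with the GC trend removed. Of 12 tight and gap junction genes, 7 were higher in the DU145-labelled and 5 in the PC3-labelled libraries. The matching shares of all genes were 39.4% and 39.8%. CLDN11 (42.0-fold, or a log2 difference of 4.47 with an offset of 8 counts), LSR (4.83-fold), CGN (3.01-fold) and F11R (2.63-fold, fractional counts in 11 libraries), all of tight junctions, were higher under the DU145 label, against GJA1 and CLDN12 (1.81-fold, -0.06 with the GC trend removed) under the PC3 label.

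Of 8 integrin genes above the minimum, 4 were higher in the DU145-labelled libraries and 1 in the PC3-labelled libraries, and 3 did not pass. Among all genes, 39.4% and 39.8% were higher in these directions. ITGA6, the partner of ITGB4 in the laminin receptor α6β4, had 279 ± 49 against 83.7 ± 5.5 CPM, and ITGA5, of the fibronectin receptor, 168 ± 37 against 63.3 ± 13.8 CPM. Both chains of α6β4 were thus higher under the DU145 label. ITGB5 (0.32 ± 0.06) lost its call with the GC trend removed (0.06), and ITGAV turned from -0.65 ± 0.17 to 0.28.

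Of 18 matrix genes above the minimum, 11 were higher in the DU145-labelled and 6 in the PC3-labelled libraries, with a median of 0.75. The matching shares of all genes were 39.4% and 39.8%. COL4A1 and COL4A2, which encode chains of basement membrane collagen, had 134 ± 13 and 364 ± 46 CPM against 18.6 ± 15 and 37.8 ± 30.3 CPM. The wide PC3 spread came from the sorts, COL4A2 standing at 65.4 ± 1.6 CPM in PC3 GFP+ and 10.1 ± 1.5 CPM in PC3 GFP- (n = 3 each). COL6A1 (40.5-fold) and COL6A2, which encode chains of collagen VI, were both near absent in the PC3-labelled libraries. FN1 and LAMB3 were higher in the PC3-labelled libraries. Among 12 genes of matrix proteolysis, 6 were higher in the DU145-labelled and 5 in the PC3-labelled libraries. With MMP1 went the membrane-type metalloproteinase gene MMP15 (13.7-fold), the inhibitor gene TIMP2 (21.9-fold, fractional counts in 8 libraries) and the urokinase gene PLAU (551 ± 33 against 125 ± 32 CPM, fractional counts in 9). ADAMTS1 and the protease inhibitor gene SERPINE2 (2.39-fold) went the other way. Of 11 other adhesion genes, 8 were higher in the DU145-labelled libraries, including ICAM1 (4.95-fold, fractional counts in 12 libraries), NECTIN1, NECTIN2 and TSPAN1 (8.99-fold), and 2 in the PC3-labelled libraries, ALCAM (20.1-fold) and MCAM (5.90-fold).

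**Figure D4:**
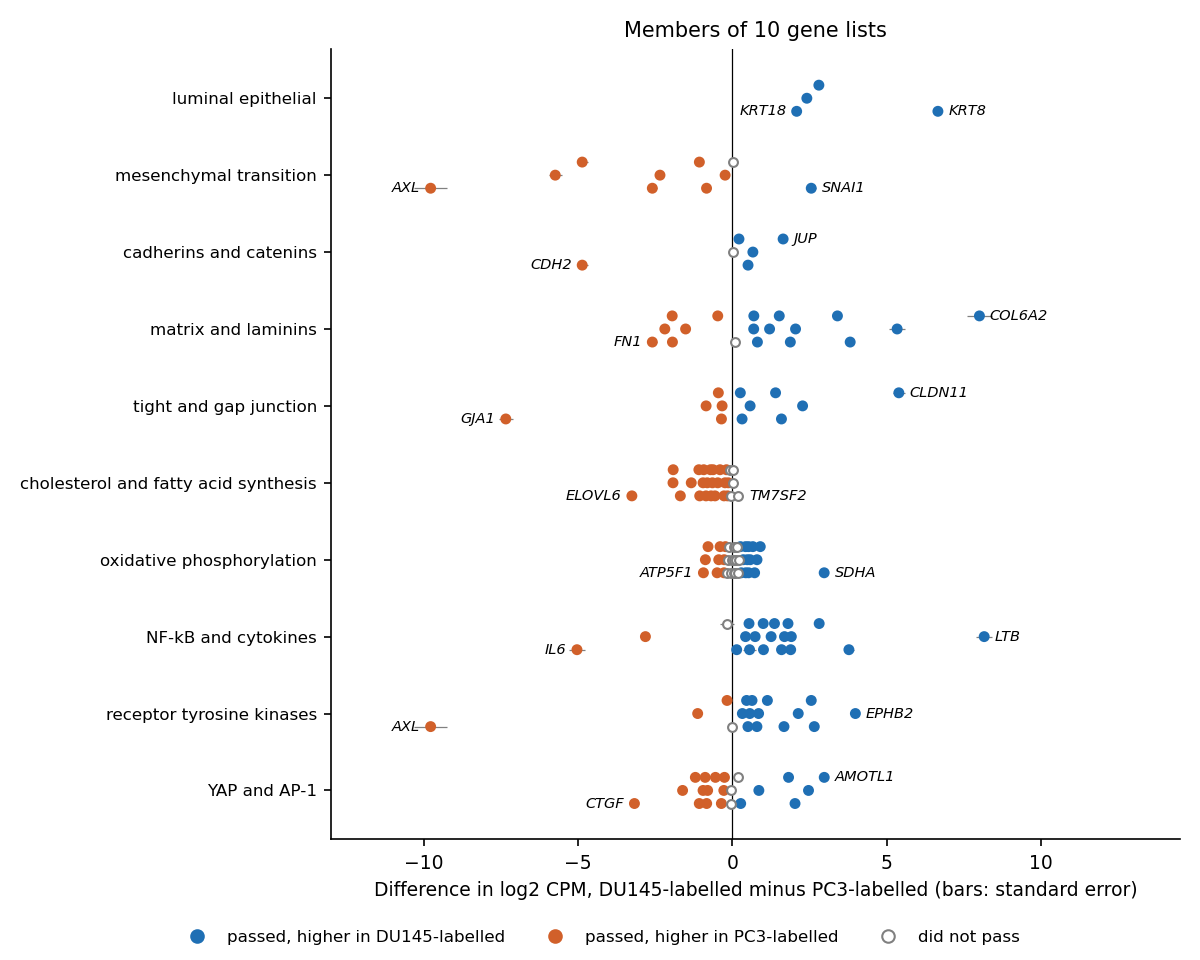
Line difference in log2 CPM (DU145-labelled minus PC3-labelled, with its standard error) for members above the minimum of 10 lists, filled where the gene passed the test. The 23 cholesterol and fatty acid genes higher in the PC3-labelled libraries lie left of 0. The one member of that list higher in the DU145-labelled libraries is not plotted.

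In metabolism, sterol and fatty acid synthesis leaned to the PC3 label. These pathways build cholesterol from acetyl-CoA and are switched on by SREBP factors when cell cholesterol is low. All 29 listed genes were above the minimum, and 23 were higher in the PC3-labelled libraries, 5 did not pass and 1 was higher in the DU145-labelled libraries. Among all genes, 39.8% were higher in the PC3-labelled and 39.4% in the DU145-labelled libraries. The list's median was -0.63, and 26 genes were higher in the PC3-labelled libraries with the GC trend removed. INSIG1, the sterol-regulated brake on SREBP, had 258 ± 38 against 67.3 ± 4.0 CPM (-1.93 ± 0.05), SC5D (3.79-fold), IDI1 (2.52-fold) and ACAT2 (3.23-fold, fractional counts in 12 libraries) are steps of synthesis, and ELOVL6, a fatty acid elongase gene, had 38.6 ± 5.1 against 4.35 ± 1.91 CPM (9.59-fold).

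Of 37 genes of oxidative phosphorylation, 14 were higher in the DU145-labelled and 9 in the PC3-labelled libraries and 14 did not pass. A smaller share passed than the 79.1% of all genes, of which 39.4% were higher under the DU145 label and 39.8% under the PC3 label. The shortfall lay mainly in genes higher under the PC3 label. SDHA, a subunit of succinate dehydrogenase that lies near the end of the short arm of chromosome 5 like SLC12A7, had 1323, 1466 and 1600 CPM against 169, 183 and 214 CPM (7.85-fold). The other 5 named members, ATP5A1 (0.90 ± 0.05), CYC1 (0.80 ± 0.10), NDUFB3 (-0.79 ± 0.11), UQCRB (-0.88 ± 0.11) and ATP5F1 (-0.94 ± 0.06), differed by less than 2-fold, and the UQCRB call was lost with the GC trend removed (-0.00). Of 22 glycolysis genes, 9 were higher in the DU145-labelled and 8 in the PC3-labelled libraries. PFKFB3 (2.08-fold) and GPI (1.62-fold) were higher under the DU145 label. The glucose transporter gene SLC2A1 (2.15-fold), LDHB (1.65-fold) and the lactate transporter genes SLC16A1 (1.78-fold) and SLC16A3 (1.68-fold, fractional counts in 12 libraries) were higher under the PC3 label.

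In serine, glycine and one-carbon metabolism, 7 of 15 genes were higher in the DU145-labelled and 5 in the PC3-labelled libraries. For this and the next lists, the matching shares of all genes were 39.4% and 39.8%. GLDC, which encodes the glycine decarboxylase, had 25.1 ± 4.9 against 0.787 ± 0.164 CPM (32.0-fold), while AHCY (1.85-fold), ASNS and SHMT2 (1.47-fold each), PHGDH (-0.55 ± 0.08) and PSPH (-0.45 ± 0.06) differed less. Retinaldehyde dehydrogenases were exchanged between the labels. ALDH1A3 had 246, 278 and 300 CPM in the DU145-labelled libraries and 1.37, 2.11 and 3.30 CPM in the PC3-labelled libraries (123-fold, fractional counts in 8 libraries). ALDH1A1 had 0.106, 0.283 and 0.455 CPM and 14.2, 29.9 and 49.8 CPM (114-fold in the other direction, or a log2 difference of -5.16 with an offset of 8 counts). In all, 4 of 10 genes of this list were higher in the DU145-labelled and 3 in the PC3-labelled libraries. Of 24 glutathione and NRF2 genes, 13 were higher in the DU145-labelled libraries, including HMOX1 (3.58-fold), GPX4 (3.16-fold), GPX1 (2.49-fold), FTL (2.08-fold) and GSR (2.04-fold). Of the 6 higher in the PC3-labelled libraries, the cystine transporter gene SLC7A11 had 34.9 ± 9.9 against 2.72 ± 0.52 CPM (12.6-fold).

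Among signaling genes, NF-kB and cytokine genes leaned to the DU145 label. Of 20 above the minimum, 17 were higher in the DU145-labelled libraries, 2 in the PC3-labelled and 1 did not pass, with a median of 1.13. Over all genes, 39.4% and 39.8% were higher in these directions. Among the 12 members above the minimum under both labels, 12 were higher in the DU145-labelled libraries. TNF had 81.0 ± 41.9 against 11.3 ± 5.3 CPM, IL32 51.3 ± 6.7 against 4.65 ± 2.94 CPM and IL18 38.9 ± 3.0 against 11.1 ± 4.1 CPM. The exceptions were the cytokine genes IL6 (19.2 ± 15.3 against 0.435 ± 0.140 CPM) and CXCL8 (95.2 ± 51.8 against 11.9 ± 2.4 CPM), both higher in the PC3-labelled libraries. Their spread came from the sorts, IL6 standing at 32.7 ± 6.8 CPM in PC3 GFP+ and 5.78 ± 0.28 CPM in PC3 GFP- (n = 3 each). Of 18 interferon and antigen presentation genes, 11 were higher in the DU145-labelled and 6 in the PC3-labelled libraries. The class I gene HLA-B had 58.9, 71.2 and 89.4 CPM against 1.54, 3.11 and 4.49 CPM (27.1-fold), and HLA-C was 2.13-fold higher. Their counts were fractional in 9 and 10 libraries, and HLA genes share sequence. IRF1 was 2.68-fold higher under the DU145 label, while the antiviral genes IFITM3 (47.4-fold, or a log2 difference of -4.49 with an offset of 8 counts), DDX58 (2.44-fold) and LGALS3BP (1.85-fold) were higher under the PC3 label.

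Of 17 receptor tyrosine kinase genes, 13 were higher in the DU145-labelled libraries, 3 in the PC3-labelled and 1 did not pass. Above the minimum under both labels were 13 of the 17, of which 10 were higher in the DU145-labelled and 2 in the PC3-labelled libraries. Over all genes above the minimum, 39.4% were higher in the DU145-labelled and 39.8% in the PC3-labelled libraries. FGFR1 had 366 ± 84 against 57.0 ± 3.5 CPM (6.29-fold), FGFR4 72.2 ± 11.1 against 16.5 ± 2.7 CPM, the ephrin receptor gene EPHB2 53.1 ± 4.7 against 3.37 ± 0.42 CPM (15.8-fold), INSR 18.1 ± 1.4 against 3.11 ± 0.60 CPM and MST1R 54.1 ± 6.2 against 17 ± 1.5 CPM. AXL stood against this direction. Ligands and binding proteins differed as well, with 7 of 16 higher in the DU145-labelled and 9 in the PC3-labelled libraries. IGF2 had 37.2, 45.0 and 52.8 CPM against 0.530, 0.749 and 1.1 CPM (58.7-fold, or a log2 difference of 5.26 with an offset of 8 counts), and the EGFR ligand gene TGFA was 7.91-fold higher under the DU145 label. FGF5 (15.6-fold), IGFBP4 (7.17-fold), IGFBP3 (6.46-fold) and FGF2 (3.19-fold, fractional counts in 12 libraries) were higher under the PC3 label. IGF2 and the genes of 2 proteins that bind IGFs, IGFBP3 and IGFBP4, thus lay on opposite sides.

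Notch ligands were exchanged. JAG2 had 79.9, 102 and 111 CPM in the DU145-labelled libraries against 6.70, 11.3 and 15.6 CPM (9.21-fold), and JAG1 had 4.46, 8.64 and 9.97 CPM against 44.0, 46.0 and 54.2 CPM (6.11-fold in the other direction). NOTCH1 (6.52-fold) was higher under the DU145 label and LFNG (5.33-fold), which encodes a sugar transferase that modifies Notch, under the PC3 label. RBPJ (-0.99 ± 0.13) lost its call with the GC trend removed (-0.07). In all, 6 of 10 Notch genes were higher in the DU145-labelled and 3 in the PC3-labelled libraries, against 39.4% and 39.8% of all genes. Of 18 TGF-β and BMP genes, 7 and 8 passed in the respective directions. INHBA, which encodes the activin A subunit, had 77.3 ± 17.2 CPM in the PC3-labelled libraries against 7.65 ± 1.1 CPM (9.96-fold), and the SMAD corepressor gene SKIL was 4.27-fold higher there. SMAD3 (2.38-fold) and BMP1 (2.05-fold) were higher under the DU145 label. SMAD5 (-1.04 ± 0.10) and BMPR2 (-1.19 ± 0.12) stood at 0.04 and -0.08 with the GC trend removed.

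Of 18 Wnt components above the minimum, 8 were higher in the DU145-labelled and 7 in the PC3-labelled libraries, with a median of 0.00. These counts lay near the shares of all genes, 39.4% and 39.8%. TCF7L1, a repressive TCF factor gene, had 23.4 ± 4.3 against 0.643 ± 0.323 CPM (40.4-fold, or a log2 difference of 4.56 with an offset of 8 counts), and KREMEN1 (2.71-fold), KREMEN2 (3.95-fold, fractional counts in 11 libraries) and DKK3 (1.76-fold), all coding for secreted or membrane modulators, were higher under the DU145 label. WLS, which carries Wnt ligands to the surface, was higher in the PC3-labelled libraries (-2.99 ± 0.12), with 41.2 ± 2.2 and 49.9 ± 1.8 CPM in PC3 GFP+ and GFP- and 20.4 ± 0.6 and 1.65 ± 0.47 CPM in DU145 GFP+ and GFP-. APC was 2.24-fold higher in the PC3-labelled libraries, with overlap.

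Of 21 YAP and AP-1 genes, 12 were higher in the PC3-labelled libraries, 6 in the DU145-labelled and 3 did not pass. Over all genes, 39.8% and 39.4% were higher in these directions. The list's median was only -0.28, and 4 members were at least 2-fold higher in each direction. The matricellular target gene CTGF had 287, 309 and 364 CPM against 30.5, 35.5 and 38.3 CPM (9.05-fold), and the immediate early gene EGR1 was 3.07-fold higher. TEAD2 (5.52-fold), TEAD3 (3.53-fold), AMOTL1 (7.86-fold) and AMOTL2 (4.08-fold) were higher in the DU145-labelled libraries, so members of this list moved in both directions by similar sizes. Of 26 genes of PI3K, AKT and mTOR signaling, 10 were higher in the DU145-labelled and 13 in the PC3-labelled libraries. SGK1, a kinase gene induced by glucocorticoids, had 139, 164 and 227 CPM in the PC3-labelled libraries against 6.55, 10.8 and 14.7 CPM (16-fold), and IRS1 was 3.16-fold higher there. PIK3CD was 2.56-fold higher under the DU145 label. The differences of PIK3CA (-1.29 ± 0.20, fractional counts in 10 libraries), PIK3R1 (-1.18 ± 0.16) and RICTOR (-1.45 ± 0.22) shrank to 0.08, -0.46 and -0.25 with the GC trend removed. Of 19 p53 target genes, 10 were higher in the DU145-labelled and 8 in the PC3-labelled libraries, against 39.4% and 39.8% of all genes. PHLDA3 (71.7-fold, or a log2 difference of 4.94 with an offset of 8 counts), CDKN1A (3.19-fold) and TNFRSF10B (2.39-fold) were higher in the DU145-labelled libraries, and PMAIP1 (2.89-fold) and RRM2B (2.30-fold, -0.16 with the GC trend removed) in the PC3-labelled libraries.

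In GFP+ libraries 5580 genes (64.5%) passed and in GFP- libraries 6543 (75.6%), and 4704 passed in both in the same direction against 133 in opposite directions. The difference itself differed between the sorts for 1667 genes (19.3%). That count ranged from 948 to 3207 when single libraries were left out, the lowest without DU145 GFP- replicate 1 and the highest without DU145 GFP+ replicate 3, and was 1043 without PC3 GFP- replicates 2 and 3. WLS, at -1.01 in GFP+ and -4.96 in GFP- libraries, and PLEK2, at -9.66 and -5.91, showed the widest gaps among the named genes.

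By chromosome, the median line difference was highest on chromosome 19 (0.48), where 71.0% of 589 genes were higher in the DU145-labelled and 9.0% in the PC3-labelled libraries, followed by chromosomes 11 (0.37) and 20 (0.29). It was lowest on chromosomes 4 (-0.58), 6 (-0.37) and 13 (-0.35). Chromosome 19 genes had a median transcript GC content of 59.9%, and those of chromosomes 4 and 13 had 42.9% and 42.1%. With the GC and length trend removed, the medians were 0.16, -0.16 and 0.14 on chromosomes 19, 4 and 13, so that chromosome 13 changed sign. The X chromosome moved less (-0.30 and -0.24). Among windows of 10 Mb with at least 15 genes (GENCODE 29 positions on GRCh38), the first window of chromosome 5, which holds SDHA and SLC12A7, had a median of 0.85 over 23 genes, and 0.78 with the trend removed. The window from 110 to 120 Mb on chromosome 13, which holds COL4A1 and COL4A2, stood at 0.84 over 19 genes, and 0.89 with the trend removed. On the other side, the window from 90 to 100 Mb on chromosome 1 stood at -1.41 over 21 genes, and -0.62 with the trend removed. These are descriptions of transcript levels, and copy number was not measured.

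**Figure D5:**
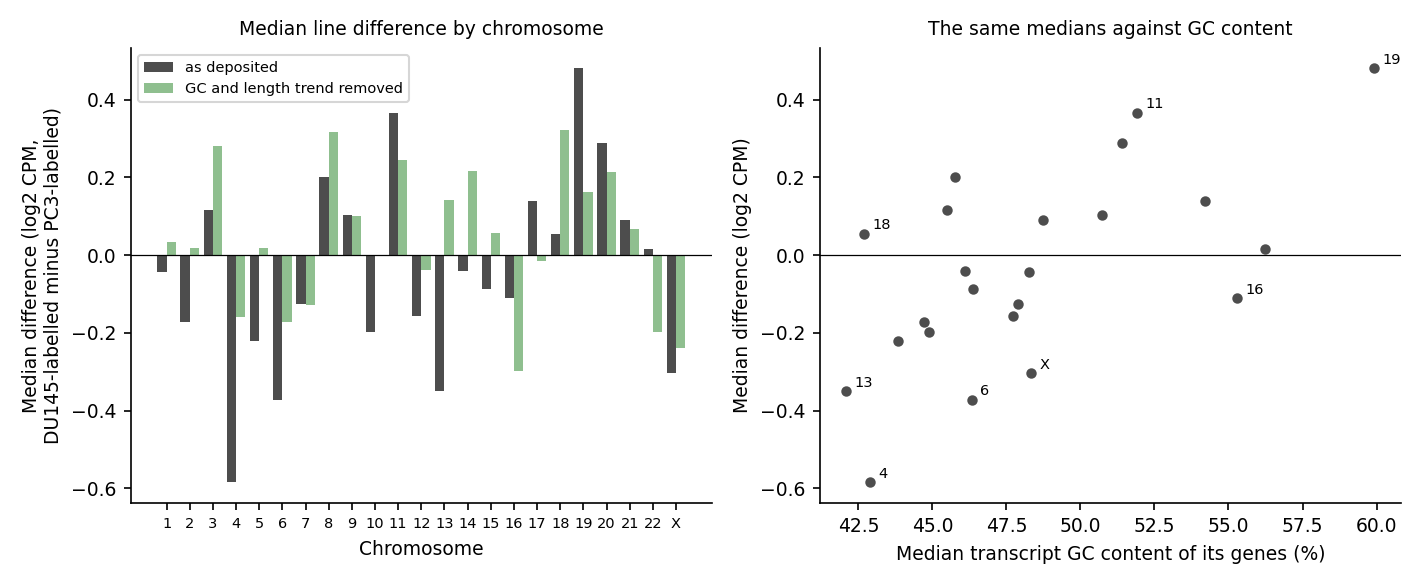
Left, median line difference (log2 CPM, DU145-labelled minus PC3-labelled) of the genes on each chromosome, as deposited and with the GC and length trend removed. Right, the deposited medians against the median transcript GC content (%) of the same genes, where chromosome 19 is highest on both axes and chromosome 4 lowest in difference.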

How the data were processed

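Total RNA was sequenced from 12 libraries, 3 in each of 4 groups given by the labels. The values are log2 CPM with an offset of 0.5 counts, as deposited by the authors. STAR and DESeq2 are named without versions in the submitters' processing notes, while the genome build and the counting tool were not given in the sources used here. Counts were estimated back from the values, and 86.9% of them were whole within 0.01 in the median library. The design had assumed log2 normalized counts, so that the minimum of 4 means 16 CPM.

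Genes that reached a log2 value of 4 in 3 or more libraries were fitted with limma 3.58.1 in R 4.3.3 (4 group means, 8 residual degrees of freedom, empirical Bayes with a trend, Benjamini-Hochberg adjustment at 0.05). The line difference is DU145 minus PC3, averaged over the sorts, and its error is the standard error of the fit. Genes below the minimum were taken from the same fit to all 18950 genes. Symbols were those of the deposited values. Positions and transcript GC content came from GENCODE 29, in which 18901 genes matched, and promoters from RefSeq. Fractional counts mark genes whose reads may be shared. On simulated data for this comparison (8655 genes, 50 changed at each size) the test recovered 84% of 1.5-fold, 98% of 2-fold and 98% of 4-fold changes. Of its calls over all sizes, 3.55% were false. The simulation changed few genes and drew noise independently for each gene, without a GC trend. In the data 79.1% of genes passed and the differences followed GC content, so these rates need not hold there.

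The members and the 34 gene lists were chosen with earlier results of these data known. Genes were named by 4 rules: the 10 largest differences in each direction among called genes without overlap and with a mean log2 value of at least 6 in the higher line, the 8 restricted genes of highest mean in each direction, up to 6 called members of each list with the largest difference, and every member of the lesion, prostate lineage and cadherin lists. PAX8, PAX2, EPCAM, KRT19, KRT7, VIM, COL6A2, MAGEA2, FOXE1, EPDR1, GTSF1 and neighbouring genes were added after their values were seen where no rule named them. Several genes that the rules name are not reported here, although they stay in the fits and in the counts over lists. Alternatives covered scaling, minimum, moderation, weights, voom on estimated counts, the GC and length trend, the replicate block and single libraries. An offset of 8 counts, leaving out PC3 GFP- replicates 2 and 3 together, and a minimum on the mean of 12 libraries were chosen after seeing the data.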

Additional observations from a re-analysis of the deposited data

Results flagged for a closer look

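Among the genes named by the rule or added, 65 had a line difference that differed between GFP+ and GFP- libraries (interaction term of limma, Benjamini-Hochberg adjusted p under 0.05 over 8655 genes). The values below are the line difference in GFP+ minus that in GFP- libraries, in log2 CPM. Over all genes 19.3% differed in this way, and this count ranged from 948 to 3207 when single libraries were left out.

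Negative values were found for PLEK2 (-3.75), GJA1 (-3.42), LAMB3 (-3.10), ADAMTS1 (-3.09), COL4A2 (-2.99), COL4A1 (-2.93), TIMP2 (-2.78), ANXA6 (-2.78), TNF (-2.75) and AMIGO2 (-2.73). The next in size were GATA2 (-2.21), ANXA1 (-2.15), IL6 (-2.14), CXCL8 (-1.98), SLC12A7 (-1.88), IL32 (-1.71), MCAM (-1.62), LSR (-1.42), ICAM1 (-1.32), FN1 (-1.11), ITGA5 (-1.11), HLA-B (-1.08), ALCAM (-1.05) and CD68 (-1.01). The smallest were HMOX1 (-0.86), ASNS (-0.83), KREMEN1 (-0.79), FKBP5 (-0.69), F11R (-0.68), SHMT2 (-0.68), SLC16A3 (-0.60), ALDH1B1 (-0.60), GSR (-0.57), SYP (-0.55), ITGB5 (-0.53), FGFR1 (-0.52), ACAT2 (-0.50), GPI (-0.45), INSIG1 (-0.44) and PIK3CD (-0.42).

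Positive values were found for WLS (3.95), LYPD1 (3.25) and TENM3 (2.91). Smaller ones belonged to CDH2 (2.08), EGR1 (2.07), MMP1 (1.86), S100A2 (1.83), DSG2 (1.57), PPL (1.31), FGF2 (1.22), PERP (1.16), ELOVL6 (1.12) and TSPAN1 (1.01). The lowest belonged to IL18 (0.92), CTNNAL1 (0.88), PAX2 (0.84), JAG2 (0.83), LFNG (0.83), SMAD5 (0.81), TGFA (0.80), AMOTL1 (0.79), DKK3 (0.72), PLAU (0.65), NUMB (0.45) and MAGED1 (0.40).

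WLS, the Wnt ligand carrier gene, COL4A1 and COL4A2 had the adjusted p-values 4.08e-07, 6.79e-08 and 6.79e-08. In DSG2, S100A2 and CTNNAL1 the line difference had opposite signs in the sorts, 0.32 and -1.25, 1.25 and -0.59, and 0.44 and -0.43.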

How the results depend on the processing

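Without a minimum, 10801 genes passed, 5703 of them higher in the DU145-labelled libraries, with 2704 and 2138 at least 2-fold higher in the DU145-labelled and PC3-labelled libraries and 8522 passing in GFP+. With a minimum of 6, which tests fewer genes, these were 3366, 2013, 319, 283 and 2779, with 1353 higher in the PC3-labelled libraries, 3263 passing in GFP- and 1086 differing between sorts. A minimum on the mean of 12 libraries gave 466 and 628 genes at least 2-fold apart. The count of genes whose line difference differed between sorts (1667) was the least stable, with 6279 under array weights, whose estimation stopped before convergence, 2539 with the GC and length trend removed, 1043 without PC3 GFP- replicates 2 and 3, and 610 at an adjusted p under 0.01. Removing the GC and length trend left 390 genes at least 2-fold higher in the PC3-labelled libraries. The cause was not tested. Restricted genes (43 and 13) numbered 22 for PC3 when the upper limit was raised from 0 to 1 on the log2 scale, 16 and 6 when the lower limit was raised from 4 to 5 on that scale, and 96 and 32 when it was lowered to 3.

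Leaving out single libraries gave 6572 to 6945 genes past the test, 3265 to 3519 higher in the DU145-labelled and 3307 to 3443 in the PC3-labelled libraries, 736 to 799 and 909 to 1111 at least 2-fold apart, 5001 to 5828 in GFP+, 6100 to 6736 in GFP-, 948 to 3207 differing between sorts, and 43 to 46 and 13 to 16 restricted. STK11 and S100A2 lost their call in some of these fits.

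With the replicate block, 6671 genes passed (3315 and 3356) and 1181 differed between sorts. Under the replicate block STK11 and S100A2 lost their calls. Deviations from the group means correlated at 0.124, 0.432 and 0.353 between same-numbered libraries of PC3 GFP+ and PC3 GFP-. Differently numbered ones reached 0.137. DU145 GFP+ replicate 3 and PC3 GFP- replicate 2, of different lines and numbers, stood at 0.763. These correlations therefore cannot show whether the sorts were paired, and the labels do not state a pairing. In DU145 the correlations of same-numbered libraries were -0.210, 0.188 and 0.469, while GFP+ replicate 1 and GFP- replicate 2 stood at 0.504. The directions reversed for CTNNA1 with quantile normalization (-0.014), for DSG2 in GFP+ (0.32), for S100A2 (-0.59) and CTNNAL1 (-0.43) in GFP-, and with the GC and length trend removed for STK11 (-0.30), ENO2 (-0.013), DSG2 (0.046), ITGAV (0.28), SMAD5 (0.035) and PIK3CA (0.081). Of 194 named or added genes past the test, 171 were neither lost nor reversed under any alternative run. Depth limits genes near 0 counts, whose fitted differences depend on the offset.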
